A study of Homo sapiens with 17 samples.

Results

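The pluripotency microRNA clusters are 3 short stretches of the human genome that encode the microRNAs of undifferentiated and rapidly dividing cells. The 9 genes examined were MIR302A, MIR302B, MIR302C, MIR302D and MIR367 on chromosome 4, MIR371A, MIR372 and MIR373 on chromosome 19, and MIR17HG on chromosome 13, out of 59792 genes in the RefSeq table for GRCh38. They were chosen by name, and every deposited summit from 20 kb before to 20 kb after each of the 3 clusters was collected in all 17 libraries. The libraries were CUT&Tag profiles, in which an antibody directs the Tn5 transposase to cut the DNA beside its target, of H1, an established human pluripotent stem cell line. H3K4me1 and H3K27ac, histone marks of enhancers and of active enhancers and promoters, were each profiled in 4 shHNRNPU libraries (shHNRNPU#1 and shHNRNPU#2, with 2 repeats each) and in 2 shLUC libraries. POLIIS2P, a name used for RNA polymerase II in its elongating form, had 2 shLUC libraries and 1 shHNRNPU#1 library, and HNRNPU, a nuclear RNA-binding protein, had 2 libraries of cells that carried no shRNA. Cells of both shRNA groups had received packaged virus and puromycin, so they differed from the HNRNPU libraries in more than the shRNA. The shRNA in shLUC targets luciferase, which these cells lack. No library was given an age or a time point, all came from 1 cell line, and the labels did not state whether repeats were separate cultures, so spreads and p-values describe these libraries only.

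MicroRNAs are cut from hairpins in longer transcripts and guide the silencing complex to messenger RNAs that pair with the seed, bases 2 to 8 of the mature strand. The miR-302 cluster, which ends in miR-367, is transcribed from the host gene MIR302CHG under the control of the factors that maintain pluripotency, and its products restrain inhibitors of the cell cycle and promoters of differentiation. The miR-371 cluster is expressed in pluripotent and germ cells, and its members miR-372 and miR-373 carry the same seed as miR-302. The miR-17-92 cluster lies in MIR17HG, a target of MYC, and promotes proliferation and survival in many dividing cells.

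The mature sequences below, from RefSeq (GRCh38), are shown because they tie the 3 clusters together beyond the choice of the members. Each runs from its 5′ end with the seed in capitals. All 4 miR-302 species share their seed with miR-372 and miR-373, which lie on another chromosome:
miR-302a-3p: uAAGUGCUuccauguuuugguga
miR-302b-3p: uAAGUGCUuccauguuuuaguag
miR-302c-3p: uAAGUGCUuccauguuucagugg
miR-302d-3p: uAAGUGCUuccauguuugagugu
miR-372-3p: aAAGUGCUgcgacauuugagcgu
miR-373-3p: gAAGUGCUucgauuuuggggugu
This seed occurred in 12 of the 2370 mature microRNA names. Another seed joined miR-367 with the last hairpin of MIR17HG and was held by 6 names:
miR-367-3p: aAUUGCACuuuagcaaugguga
miR-92a-3p: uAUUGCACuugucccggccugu
The seed of miR-17 and miR-20a holds the first 6 letters of the miR-302 seed displaced by 1 base, and was held by 8 names:
miR-17-5p: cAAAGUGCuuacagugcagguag
miR-20a-5p: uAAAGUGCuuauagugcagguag
The seed of miR-371a-3p was held by 1 name only, its own:
miR-371a-3p: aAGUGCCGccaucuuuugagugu

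The miR-302 hairpins lie on the minus strand of chromosome 4 (chr4:112647874-112648557), inside MIR302CHG and inside LARP7, a gene of the plus strand. The miR-371 hairpins lie on the plus strand of chromosome 19 (chr19:53787675-53788773), where the lncRNA LOC124904767 overlaps the first of them and MIR371B lies antisense to MIR371A. MIR17HG lies on the plus strand of chromosome 13 (chr13:91347687-91354577) and holds the hairpins of MIR17, MIR18A, MIR19A, MIR20A, MIR19B1 and MIR92A1. Hairpins of 1 cluster share a window, so each cluster and not each gene gives a value.

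Across the whole series, the lists held 40487 to 90914 summits for H3K27ac, 147145 to 214333 for H3K4me1, 79949 to 87456 for POLIIS2P and 34649 to 35526 for HNRNPU. The strength of a summit is given as its percentile, the share of its own list that scored no higher, and a summit is called strong when it is among the 20000 highest of its list. Lists differ in length, so strong covers a larger share of the HNRNPU lists than of the H3K4me1 lists. At the same site near miR-371, HNRNPU at 62.4 was strong and H3K4me1 at 88.2 in shLUC repeat 1 was not. Strong is therefore not the same level across antibodies. Read depth is unknown. The 4 histone libraries of shLUC cells are titled with one mark while their peaks are named for the other, and the name on the peaks was used. By that name each of these libraries shared 46.4% to 73.5% of strong summits with the shHNRNPU libraries of its antibody, and 18.2% to 25.8% with those of the other antibody. Results under the titles follow beside the comparisons. The cell identity was checked at genes with 2 kb on each side. Of 10 pluripotency genes, 7 had a strong H3K27ac summit in all 6 libraries, against 0 of 5 mesendoderm genes, 0 of 3 neural genes and 0 of 5 genes of other somatic cells. POU5F1 and CRIPTO had one in some of these libraries, in 4 of 6 and 5 of 6, and DPPA4 in 0 of 6. PAX6, of the neural genes, had one in 2 of 6, and GATA6, of the mesendoderm genes, in 1 of 6. Of the 5 other somatic genes, 3 had none in any library. Strong POLIIS2P in all libraries was found at 7 of 10 pluripotency, 1 of 5 mesendoderm, 0 of 3 neural and 1 of 5 other somatic genes. For H3K4me1 these counts were 3, 0, 0 and 1. Strong HNRNPU summits in both repeats were found at 8 of the 10 pluripotency, 3 of the 5 mesendoderm, 2 of the 3 neural and 0 of the 5 other somatic genes. Shares over all genes were not computed with 2 kb on each side, so these marker counts have no background. At the HNRNPU gene itself the best POLIIS2P summit was at the 99.5th to 99.7th percentile, and no library measured its transcript.

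The region around miR-302 was examined first. HNRNPU had 3 summits here in each repeat, and the repeats placed them together. The first lay at the start of LARP7, whose product stabilises the RNP that holds back the elongation kinase P-TEFb, next to the start of the helicase gene ZGRF1. Its percentile was 98.7 in repeat 1 and 98.4 in repeat 2. The second lay at chr4:112646131 and chr4:112646128, in LARP7 and past the transcribed end of MIR302CHG, with percentiles of 73.5 and 93.2. The third lay at chr4:112648877 and chr4:112648873, in MIR302CHG just before the hairpins, with percentiles of 82.3 and 69.8. No POLIIS2P, H3K27ac or H3K4me1 library had a summit at the third site. It was the only one of the 6 HNRNPU sites in the 3 windows without POLIIS2P in all 3 libraries.

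The third site fell within a promoter that RefSeq places at the inner start of MIR302CHG (chr4:112648654-112648953, minus strand, GRCh38). The promoter is shown because the HNRNPU summits of both repeats lie in it. Capitals mark the 5 bases from one repeat's summit to the other's, bases 77 to 81, counted from 1 at the first letter:
MIR302CHG inner promoter: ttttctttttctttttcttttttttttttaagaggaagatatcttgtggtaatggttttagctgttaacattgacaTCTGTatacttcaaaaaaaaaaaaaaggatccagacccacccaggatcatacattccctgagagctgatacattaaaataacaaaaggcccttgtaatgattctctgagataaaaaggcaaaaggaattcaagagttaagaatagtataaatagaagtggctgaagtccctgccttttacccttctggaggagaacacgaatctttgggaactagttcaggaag
The letters TATAAA of the TATA box stand at bases 222 to 227, at -29 relative to the start. They occur, on either strand, in 11.5% of the 35116 promoters of this length. The outer MIR302CHG promoter (chr4:112650002-112650301) held no summit of any library. It contains ATGCAAA, the octamer core read by POU-domain factors, at -202 relative to its start, and 4.46% of promoters hold these letters on either strand. Neither promoter held the E-box CACGTG, found in 7.26%. A match of letters is a description of the sequence only.

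**Figure D1:**
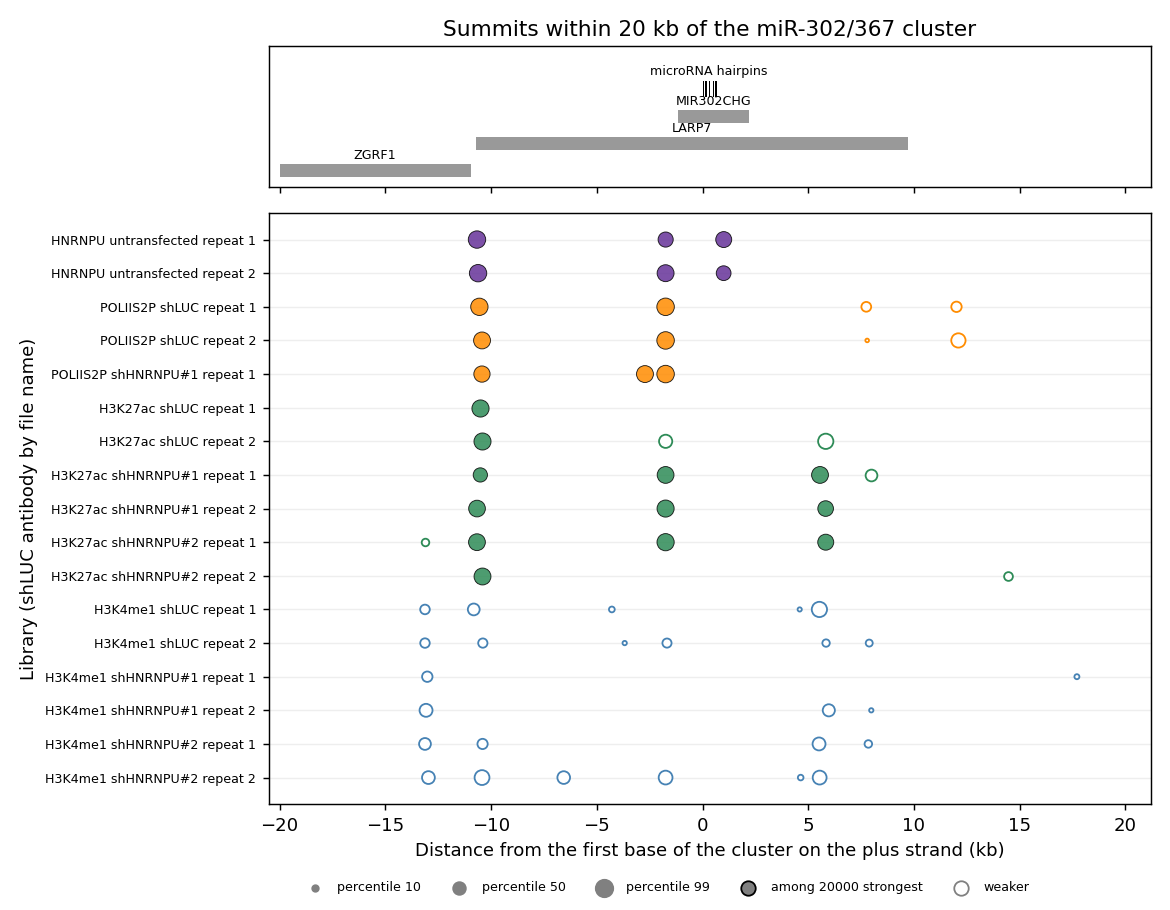
Summits within 20 kb of the miR-302 cluster, which includes miR-367, in each of the 17 libraries, by distance in kb from the first base of the cluster on the plus strand. Circle area follows the percentile within the list, filled circles are among the 20000 strongest, and the upper panel shows genes in grey and hairpins in black. HNRNPU, POLIIS2P and most H3K27ac libraries stack at -10.4 and -1.75 kb, HNRNPU alone at 0.999 kb, and all H3K4me1 circles are open.

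POLIIS2P was strongest at the second site. Its summit at chr4:112646128 reached a percentile of 99.8 in the shHNRNPU#1 library and in both shLUC libraries. The 3 values lay between 99.80 and 99.84, and 0.857% of all windows of the same construction had a mean best summit as high. At the start of LARP7 the percentile was 85.4 in the shHNRNPU#1 library, and 97.7 and 92.7 in the shLUC libraries, so the single knockdown library was the lowest there. In the shHNRNPU#1 library a further strong summit stood at chr4:112645153, at percentile 93.1, where neither shLUC library had one. With 1 knockdown library these differences have no replicate check.

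At chr4:112646128, 8 libraries of 4 antibodies had their summit on the same base. Among the strong POLIIS2P summits of each library, 0.865% to 1.02% had at least 8 libraries on their base. Why libraries of different antibodies met on 1 base was not tested.

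H3K27ac was found in all 6 libraries at the start of LARP7. Its percentile there was 64.8 and 90.6 in shHNRNPU#1, 91.7 and 92.9 in shHNRNPU#2, and 95.9 and 94.8 in shLUC. All 4 knockdown values at this site were below both shLUC values, with shHNRNPU#1 repeat 1 the lowest. Over whole windows such an order was met in 9.98% of those tested. Lists differ in length, and by rank the groups overlapped here. The summit ranked 3821 in the list of shHNRNPU#1 repeat 2, above 4754 in that of shLUC repeat 2. At the second site the order was another. The percentile was 91.7, 95.0 and 96.4 in 3 shHNRNPU libraries, shHNRNPU#2 repeat 2 had no summit, and shLUC had none in repeat 1 and one at 54.9 in repeat 2. Further into LARP7, near 5.5 and 5.8 kb, the summit of shHNRNPU#1 repeat 1 was at 92.1, and those of shHNRNPU#1 repeat 2 and shHNRNPU#2 repeat 1 were at 78.8 and 82.6. There the only shLUC summit was at 75.1, in repeat 2. These sites were singled out after their values were seen, so they are given without a test.

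Over the whole window the number of strong H3K27ac summits was 3, 3, 3 and 1 in the shHNRNPU libraries and 1 and 1 in the shLUC libraries. The means were 2.5 ± 1 (SD, n = 4) and 1 ± 0 (SD, n = 2), and the groups overlapped through shHNRNPU#2 repeat 2 (two-sided exact permutation p = 0.4). The best H3K27ac summit of the window was at 92.1, 95.0, 96.4 and 92.9 in shHNRNPU and at 95.9 and 94.8 in shLUC. The difference in means, -1.20 percentile points, was smaller than the SD of 1.95 among the knockdown libraries (two-sided exact permutation p = 0.533). With 10 kb on each side, which leaves out the start of LARP7, the difference was 33.3 (two-sided exact permutation p = 0.6). In that narrower window shHNRNPU#2 repeat 2 and shLUC repeat 1 had no summit and were counted as 0.

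H3K4me1 was weak throughout this window. No library had a strong summit, and the best one was at 32.6 and 52.9 in shHNRNPU#1, 52.6 and 70.8 in shHNRNPU#2, and 74.9 and 26.2 in shLUC. The shLUC repeats lay on either side of all 4 knockdown values, and the difference in means of 1.68 had a two-sided exact permutation p of 0.867. Of all windows, 59.3% had a mean best H3K4me1 summit as high as this one. The site found in all 6 H3K4me1 libraries lay within ZGRF1 at -13.1 kb, at percentiles of 26.2 to 52.9.

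Next, the miR-371 window was examined. No HNRNPU, POLIIS2P, H3K27ac or H3K4me1 library had a summit on the hairpins, and the strongest sites flanked them at a distance. At 5.49 kb from the cluster's first base, a site between MIR373 and the transcribed end of NLRP12, a regulator of innate immunity, had a summit in 17 of 17 libraries. HNRNPU stood there at percentiles of 62.4 and 73.4. POLIIS2P stood at 90.2 in the shHNRNPU#1 library and at 82.7 and 91.1 in the shLUC libraries, so the knockdown value lay between the controls. Closer to the hairpins, near 2.07 and 2.42 kb, weak POLIIS2P summits appeared in the shLUC libraries only. They were at percentiles of 28.1 and 44.7 in repeat 1 and of 31.7 in repeat 2, and 1 knockdown library without them is no test.

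**Figure D2:**
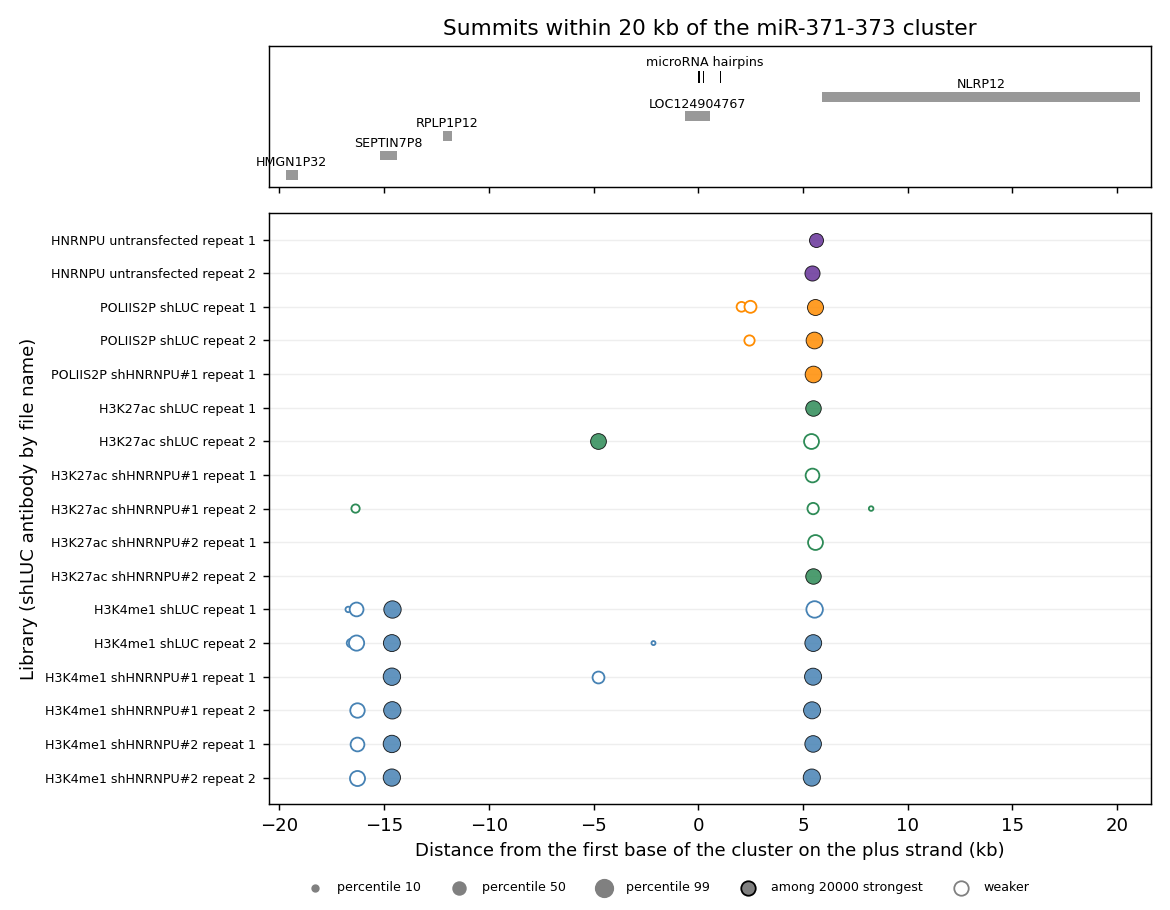
Summits within 20 kb of the miR-371 cluster, which includes miR-372 and miR-373, in each of the 17 libraries, by distance in kb from the first base of the cluster. Circle area follows the percentile within the list, filled circles are among the 20000 strongest, and the upper panel shows genes in grey and hairpins in black. One column at 5.49 kb is shared by 17 libraries, a second at -14.6 kb is held by the 6 H3K4me1 libraries, and the hairpins themselves are empty.

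H3K4me1 had 2 sites in all 6 libraries. The stronger lay at -14.6 kb within the pseudogene SEPTIN7P8, at percentiles of 98.6, 98.2, 98.4 and 97.0 in shHNRNPU and of 98.2 and 93.3 in shLUC. Reads of a pseudogene can also come from its parent gene, so their placement is uncertain. At 5.49 kb the percentiles were 94.4, 94.5, 89.2 and 95.7 in shHNRNPU and 88.2 and 91.7 in shLUC. The best summit of the window differed by 2.31 percentile points, less than the SD of 3.42 between the shLUC repeats (two-sided exact permutation p = 0.2, adjusted p = 0.935 over all windows). Without shLUC replicate 2 the difference was -0.11.

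H3K27ac was moderate in this window and lay almost wholly at 5.49 kb. The best summit was at 60.0 and 39.5 in shHNRNPU#1, at 71.0 and 77.3 in shHNRNPU#2, and at 77.9 and 80.5 in shLUC. All 4 knockdown values were below both controls. The means were 62.0 ± 16.6 (SD, n = 4) and 79.2 ± 1.84 (SD, n = 2), a difference of -17.2 with a two-sided exact permutation p of 0.2 and an adjusted p of 1. It was -9.72 without shHNRNPU#1 replicate 2, whose list was the shortest of this mark. In shLUC repeat 2 the best summit stood elsewhere, at -4.78 kb. At the 5.49 kb site itself that library was at 71.2, below shHNRNPU#2 repeat 2, so at that site the groups overlapped. Strong H3K27ac summits numbered 0, 0, 0 and 1 in shHNRNPU and 1 and 1 in shLUC (two-sided exact permutation p = 0.4).

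The miR-17-92 window differed from the others in that POLIIS2P covered it at many sites. It held 10 summits in the shHNRNPU#1 library, 11 in shLUC repeat 1 and 11 in shLUC repeat 2, and 1.59% of all windows had as many on average. The strongest lay in MIR17HG between its start and the hairpins, at chr13:91349058 in all 3 libraries. Its percentile was 99.4 in the shHNRNPU#1 library and 98.6 and 98.8 in the shLUC libraries, and 3.87% of windows reached this mean. Beyond the annotated end of MIR17HG there were 7 summits in the shHNRNPU#1 library and 8 in each shLUC library. The best of them were at percentiles of 94.3, 96.7 and 95.9, near 18.3 kb, and the farthest stood 12.1, 12.6 and 12.1 kb past the end. No HNRNPU or H3K27ac library had a summit past the end of the gene. The reference table holds no other gene between the end of MIR17HG and the end of this window.

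**Figure D3:**
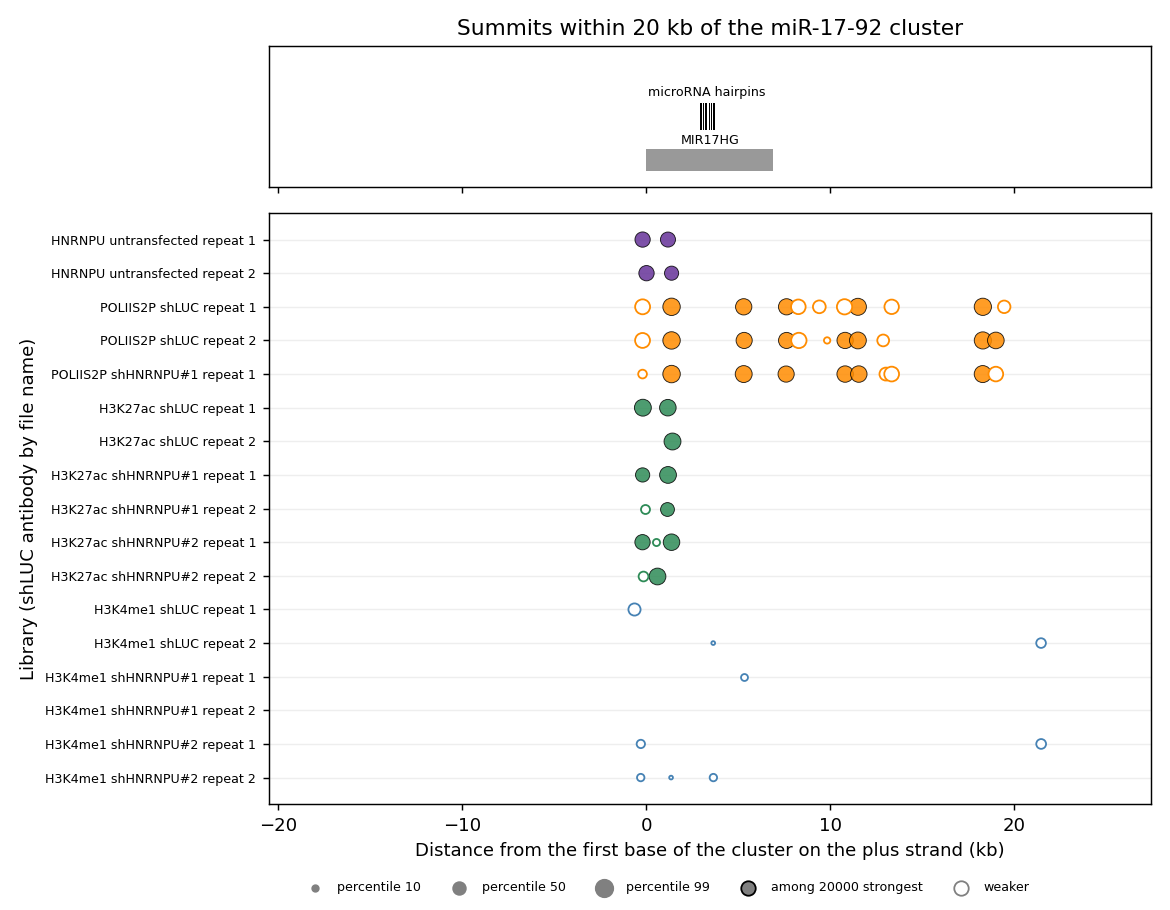
Summits within 20 kb of the miR-17-92 cluster in each of the 17 libraries, by distance in kb from the first base of MIR17HG. Circle area follows the percentile within the list, filled circles are among the 20000 strongest, and the upper panel shows MIR17HG in grey and the hairpins in black. HNRNPU and H3K27ac circles lie near the start of the gene, and POLIIS2P circles run from there to 19.4 kb.

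HNRNPU stood at 2 sites of MIR17HG. At the start of the gene the percentiles were 75.0 and 75.6, and near 1.37 kb, beside the POLIIS2P maximum, they were 72.6 and 63.5. The promoter of MIR17HG (chr13:91347437-91347736, plus strand, GRCh38, RefSeq) is shown because 10 libraries had a summit in it and 7 of them, from HNRNPU, POLIIS2P and H3K27ac, fell within the 7 bases in capitals, bases 44 to 50:
MIR17HG promoter: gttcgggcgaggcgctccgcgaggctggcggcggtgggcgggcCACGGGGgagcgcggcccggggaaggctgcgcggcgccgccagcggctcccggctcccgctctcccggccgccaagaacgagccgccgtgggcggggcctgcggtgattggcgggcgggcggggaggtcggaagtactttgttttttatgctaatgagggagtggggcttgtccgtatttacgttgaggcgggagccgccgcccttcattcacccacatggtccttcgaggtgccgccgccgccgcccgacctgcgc
It held none of the E-box, octamer core and TATA box letters given above on either strand, which says only that these letters are not in this window.

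H3K27ac marked the first part of the gene in all 6 libraries. The best summit was at 91.6 and 60.9 in shHNRNPU#1, at 88.4 and 91.2 in shHNRNPU#2, and at 92.7 and 92.9 in shLUC. All knockdown values were again below both controls, by little in 3 libraries and by more in shHNRNPU#1 repeat 2. The best summit stood at the start of the gene in shLUC repeat 1 and near 1.37 kb in shLUC repeat 2. At the site near 1.37 kb, shLUC repeat 1 was at 88.8, below shHNRNPU#1 repeat 1 at 91.6, so at that site the groups overlapped. The means were 83.0 ± 14.8 (SD, n = 4) and 92.8 ± 0.13 (SD, n = 2), and the difference of -9.81 had a two-sided exact permutation p of 0.4 and an adjusted p of 1. Without shHNRNPU#1 replicate 2 the difference was -2.43. Strong summits numbered 2, 1, 2 and 1 in shHNRNPU and 2 and 1 in shLUC, with equal means of 1.5. H3K4me1 was nearly absent, with no strong summit in any library. Its best percentile was 12.0 in shHNRNPU#1 repeat 1, 28.3 and 14.4 in shHNRNPU#2, and 45.9 and 27.4 in shLUC, while shHNRNPU#1 repeat 2 had no summit. The difference of -23.0 had a two-sided exact permutation p of 0.133, and the groups overlapped. It rested in part on shLUC replicate 1, without which the difference was -13.8. The difference was -11.7 with 10 kb and -0.61 with 50 kb on each side.

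**Figure D4:**
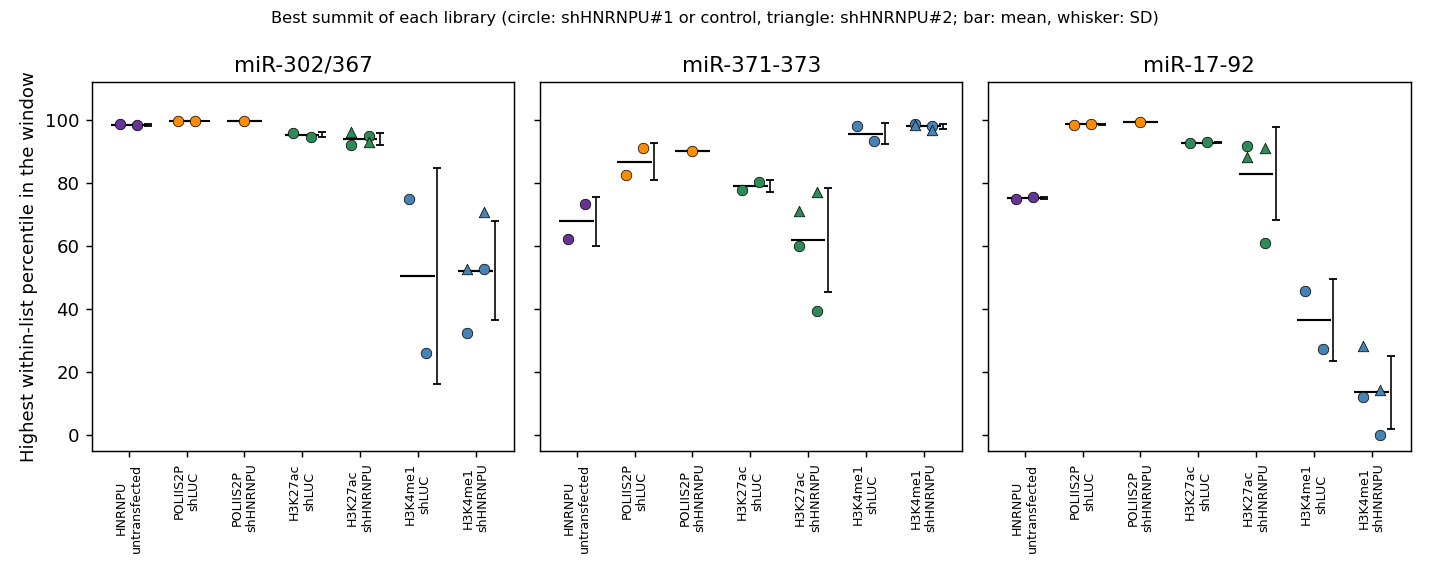
Percentile of the best summit of each library in each window, by antibody and condition, on a linear axis with no summit drawn at 0. Horizontal bars are means and whiskers are SDs over the libraries of a group. POLIIS2P is near the top at miR-302 and miR-17-92, H3K4me1 is near the top at miR-371 only, and the H3K27ac knockdown points lie below both shLUC points at miR-371 and miR-17-92.

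The 3 clusters were read against all windows built in the same way, from genes of at most 10 kb with 20 kb on each side. With 4 against 2 libraries there are 15 assignments and the smallest possible two-sided exact permutation p is 0.0667, so no window could pass 0.05. The H3K27ac groups were apart, with all knockdown libraries lower, in 2 of the 3 clusters. In both of these the best summits of the 2 shLUC libraries stood at different sites. The call of lower with groups apart was made in 9.98% of 27672 windows, and the opposite one in 1.79%. The median difference over all windows was -3.70. No cluster had its H3K4me1 groups apart, against 8.33% of 29084 windows lower and 6.23% higher. Percentiles move with list length, and with ranks within the 40000 strongest summits of each list, a choice made after the data were seen, miR-371 was still apart for H3K27ac (difference -14.4) and miR-17-92 was not (difference -9.04). In that ranking 6.85% of 23984 windows were lower with groups apart.

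Under the titles of the shLUC libraries the differences were larger at every cluster. The differences for H3K4me1 were -43.1 at miR-302, 18.9 at miR-371 and -79.2 at miR-17-92, each with a two-sided exact permutation p of 0.0667 and an adjusted p of 0.134. For H3K27ac they were 43.6, -33.8 and 46.4, with adjusted p of 0.184, 0.255 and 0.184 by the exact permutation test. The groups were then apart in all 6 comparisons. The background moved with them, since 17.2% of windows were lower and 41.3% higher for H3K4me1, and 46.4% were lower and 10.5% higher for H3K27ac.

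As a description of levels, each cluster was set beside all 35599 windows and the 1905 windows of microRNA genes. The mean best HNRNPU percentile was 98.5 ± 0.258 (SD, n = 2) at miR-302, 75.3 ± 0.38 at miR-17-92 and 67.9 ± 7.78 at miR-371, against medians of 14.6 over all windows and 26.6 over microRNA windows. The lower 2 of these did not differ beyond the SD of the miR-371 repeats. The HNRNPU value at miR-302 comes from the start of LARP7, and with 10 kb on each side it was 87.7. For POLIIS2P the order was miR-302, miR-17-92 and miR-371 at 99.8, 98.9 and 88.0, against medians of 18.6 and 62.3. The POLIIS2P value at miR-302 comes from the site in LARP7 past the transcribed end of MIR302CHG. No POLIIS2P library had a summit within MIR302CHG. For H3K27ac the order was miR-302, miR-17-92 and miR-371 at 94.5, 86.3 and 67.7, against 31.4 and 48.0. In 3 of the 6 H3K27ac libraries the best summit at miR-302 stood at the start of LARP7. With 10 kb on each side the mean at miR-302 was 59.8 ± 46.9 (SD, n = 6, with 2 libraries that had no summit), the lowest of the 3 clusters, beside 86.3 at miR-17-92 and 67.7 at miR-371. For H3K4me1 the order was another, with miR-371 at 97.3, miR-302 at 51.7 and miR-17-92 at 21.3, against 66.3 and 78.1. Every one of the 6 HNRNPU sites in the 3 windows was present in both repeats and in the deposited series-wide list of 400 bp intervals. That list covers both repeats together, so presence in it is no separate support. Over the whole first repeat, 48.5% of summits had one of the second repeat within 250 bp. Of the sites that did, 55.4% had POLIIS2P in all 3 libraries, against 5 of the 6 here.

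**Figure D5:**
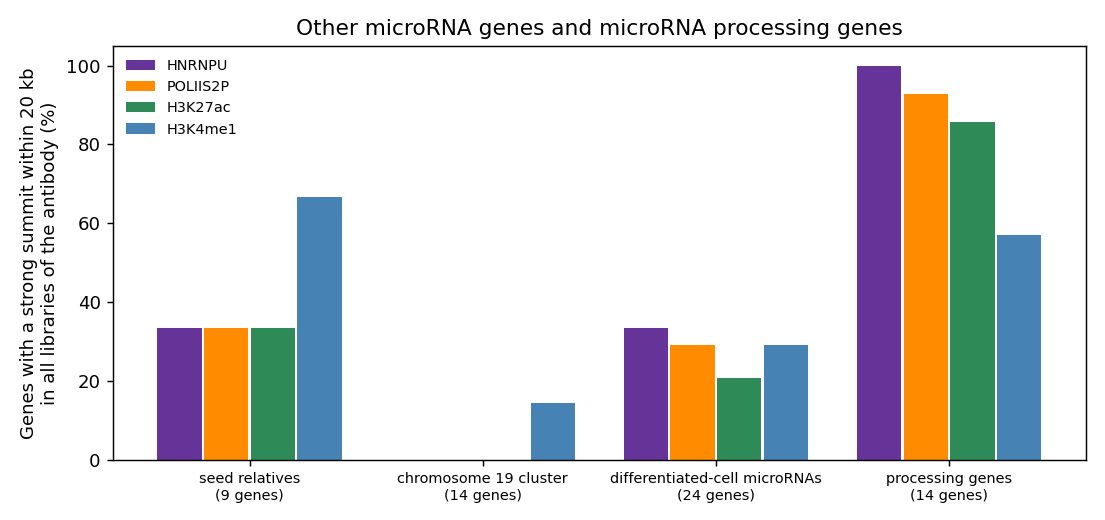
Share of genes in 4 lists that had a strong summit within 20 kb in all libraries of an antibody, in percent, with the number of genes under each list. The processing genes are mostly longer than 10 kb while the other lists are short hairpins, so their bars cover longer windows and are not comparable with the rest. Strong covers a larger share of a shorter list, so bars of different antibodies are not on the same level. The chromosome 19 cluster has bars for H3K4me1 only.

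Other genes of the pathway were counted in the same way. The 9 relatives that share seeds with miR-17-92 lie in only 2 places. Around MIR106B, MIR93 and MIR25, on chromosome 7, HNRNPU stood at a mean of 97.0, POLIIS2P at 99.5 and H3K27ac at 96.2. Around MIR106A, MIR18B, MIR20B, MIR19B2, MIR92A2 and MIR363, on chromosome X, HNRNPU stood at 10.9 and H3K27ac at 59.4, while H3K4me1 was strong in all libraries at 91.3. None of the 9 had its groups apart for either mark, and they give values for only 2 places. Over all windows, 8.33% were lower and 6.23% higher for H3K4me1, and 9.98% and 1.79% for H3K27ac. With 2 places, the absence of a call is near that background.

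The 14 members tested of the chromosome 19 cluster lie before miR-371 and include carriers of the seed of miR-372 and miR-373. They had no strong H3K27ac or HNRNPU summit in any library. Over all windows, 15.5% had a strong H3K27ac summit and 31.2% a strong HNRNPU summit in all libraries. For H3K4me1, 2 of 14 were strong in all libraries, MIR516A1 and MIR527, and their windows reach the SEPTIN7P8 site described above. The H3K4me1 share was 16.3% over all windows and 24.3% over microRNA windows, so this count was near the share over all windows. Of the 14, 2 (MIR520A and MIR520H) had higher and 0 lower H3K4me1 in knockdown, groups apart, in a background of 6.23% higher and 8.33% lower. Many of these windows overlap and hold the same best summits, so the 14 are not separate values.

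Among 24 microRNAs of differentiated cells, a strong HNRNPU summit in both repeats was found at 8, strong POLIIS2P in all libraries at 7 and strong H3K27ac at 5. Over all windows these shares were 31.2%, 24.9% and 15.5%, and over microRNA windows 36.4%, 36.4% and 22.3%, so the counts were near the background. MIR143 and MIR145 lie in overlapping windows with the same best summits, and both count among the 5. MIRLET7G, a member of the let-7 family that promotes differentiation, stood at a mean of 96.8 for H3K27ac and 98.8 for HNRNPU. MIR223, a microRNA of myeloid cells, had no H3K27ac, HNRNPU or POLIIS2P summit. For H3K4me1, 4 of 24 (MIR375, MIR9-1, MIR9-3 and MIRLET7I) were lower and 3 (MIR1-1, MIR196A1 and MIR206) higher in knockdown, groups apart, in a background of 8.33% and 6.23%. For H3K27ac, 2 of 18 tested (MIR133A2 and MIR142) were lower and 0 higher, in a background of 9.98% and 1.79%. These windows can hold neighbouring protein-coding genes, so a strong summit is not evidence that the microRNA is transcribed.

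The 14 microRNA processing genes all had a strong HNRNPU summit in both repeats, and 13 had strong POLIIS2P and 12 strong H3K27ac in all libraries. These genes have a median length of 63.7 kb, so their windows are longer than those of the hairpins. Among 14342 protein-coding genes longer than 10 kb, with a median length of 42.1 kb, the shares were 72.8%, 59.8% and 46.5%. DROSHA, which cuts the hairpin from the primary transcript, stood at 90.3 for HNRNPU and 91.1 for POLIIS2P. DICER1, which cuts the loop, stood at 78.6 and 85.9. LIN28A, which blocks let-7 maturation in pluripotent cells, stood at 99.9 for POLIIS2P and, for H3K4me1, at 99.98. Only TARBP2, the partner of DICER1, was short enough for the group comparison, and its H3K27ac was lower in knockdown, groups apart. The same call was made in 9.98% of all windows tested, and the opposite one in 1.79%. A single gene beside that background gives no result for the list.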

How the data were processed

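The 17 libraries were CUT&Tag profiles of H1 cells, and the antibody list of the labels names neither H3K4me1 nor POLIIS2P, which rest on the titles. The authors deposited 1 summit list per library, whose score was read as −log10 of a p-value or q-value from its lowest values, which correspond to thresholds of 0.01 (histone marks) and 0.05 (others). The submitters' processing notes name cutadapt, Bowtie2, SAMtools, MACS2 and deepTools, without versions, and the hg38 build. The paper listed for the series describes other experiments, so no method was taken from it. The series-wide HNRNPU interval list carries no usable score and served for positions only. Read depth is not given, so scores were used only as ranks within a list.

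Groups came from the sample titles, except that the histone antibody of the shLUC libraries came from the peak and file names. For each window (RefSeq GRCh38) the best percentile (0 without a summit), the number of strong summits (20000 best per list) and sites (summits chained at 250 bp) were computed in Python 3.11.15 with numpy 2.4.6 and pandas 2.3.3. Groups were called apart when all 4 shHNRNPU values lay above or below both shLUC values. Exact two-sided permutation tests on the difference of means were run on every window and adjusted by the Benjamini-Hochberg method over all of them. The code was tested on simulated data. Alternatives were the title antibody, each shRNA alone, flanks of 10 and 50 kb, the 10000 strongest or all summits, a score of at least 10, a replicate block and leaving out each library. Named items were the members, the best site of each antibody, every site in all its libraries, and lists of other genes of the pathway, with TDGF1 found under its newer symbol CRIPTO. The members, lists and tests were chosen with earlier results of these data known.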

Additional observations from a re-analysis of the deposited data

Results flagged for a closer look

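Among the 12 groups of 4 shHNRNPU libraries examined, 3 had a library far from the others. Chance alone gives such a gap in about 1 in 20 groups, and counts of few summits reach it easily because most values are tied. The number of strong H3K27ac summits around miR-302 was 1 in shHNRNPU#2 repeat 2 and 3 in the other libraries. Around miR-371 the number was 1 in shHNRNPU#2 repeat 2 and 0 in the others. In both cases the gap to the nearest library was the whole range. The best H3K27ac summit around miR-17-92 was at percentile 60.9 in shHNRNPU#1 repeat 2, against 88.4 to 91.6 in the others, and the gap was 0.894 of the range. This library also had the shortest H3K27ac list, 40487 summits, and shHNRNPU#2 repeat 2 had the longest of the knockdown lists for this mark, 85142. The part of list length in these values was not tested.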

How the results depend on the processing

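Values are differences between shHNRNPU and shLUC unless stated, and the cause of each change was not tested. Of 198 recomputed values, 163 stayed within the replicate spread of the reported value or on its side of the threshold. In the group comparisons no p-value could pass the threshold, so that side was fixed in advance. The count of 163 is therefore no measure of stability, and it includes values far from the reported ones. Under the title antibody the best H3K4me1 percentile went from -23.0 to -79.2 at miR-17-92 and from 2.31 to 18.9 at miR-371. The 12 values of the replicate block are among the 163, and that setting cannot change a difference. Under the title antibody, the best H3K4me1 percentile at miR-302 went from 1.68 to -43.1, and H3K27ac went to 43.6 at miR-302 and 46.4 at miR-17-92. Strong H3K4me1 summits went from 0 to -1 at miR-302 and -1.5 at miR-17-92, and strong H3K27ac summits from 0 to 1.5 at miR-17-92. Windows with groups apart rose to 17606 for H3K4me1 (4235 by peak names) and 16979 for H3K27ac (3258). With shHNRNPU#1 alone H3K4me1 at miR-302 was -7.82. A flank of 10 kb gave -9.55 there, 33.3 for H3K27ac and a mean HNRNPU percentile of 87.7. A flank of 50 kb gave -5.87 for POLIIS2P at miR-371 (3.32 at 20 kb) and 79.1 for HNRNPU at miR-17-92. Within the 40000 strongest, H3K4me1 was 0 at miR-302 and miR-17-92. With all summits, strong-summit differences became -1.75 (miR-302) and -1.5 (miR-371) for H3K4me1, and 0 (miR-371) and 0.75 (miR-17-92) for H3K27ac. A score of at least 10 gave 0.75, -0.25 and, for H3K27ac at miR-17-92, -0.75. The 10000 strongest gave 0 at miR-371 and -0.75 at miR-17-92 for H3K27ac.

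Leaving out 1 library at a time, the best H3K4me1 percentile ranged from -22.6 to 26.0 at miR-302 and from -0.108 to 4.73 at miR-371, with the lowest values without shLUC replicate 2, and from -32.3 to -13.8 at miR-17-92. Strong summits ranged from 0 to 1 (miR-371, H3K4me1) and from -0.5 to 0.5 (miR-17-92, H3K27ac). Repeat numbers showed no sign of pairing the libraries, as repeat differences of the groups correlated at -0.036 to 0.012 over windows. Such low values do not establish that the repeats were unpaired. A replicate block permutes within repeat numbers and alters only the p-value. It cannot change a difference (-9.81 for H3K27ac at miR-17-92), so it is no check of one, and its smallest p is 0.111.

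Depth is unknown, 2 shLUC libraries per mark set the limit of every test, and the absence of a summit says only that none was called.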
